A study of Mus musculus with 7 samples.

Results

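The cells described here are the caerulein cluster that the authors named B lymphocytes. They were taken by their deposited annotation, as every cell of the caerulein mice whose cluster name began with B_lymph. This gave 1392 of the 22177 caerulein cells and of the 58473 cells of the whole series, 994 from caerulein mouse 1 and 398 from caerulein mouse 2. They made up 6.57% of the cells of mouse 1 (95% exact binomial interval 6.18 to 6.97) and 5.65% of those of mouse 2 (5.13 to 6.22). The study dissociated whole pancreata of C57BL/6 mice aged 2 months and sequenced the RNA of single cells in droplets, with 1 library per mouse. The 2 caerulein mice were wild type and received caerulein, a cholecystokinin analogue that injures the exocrine pancreas, at 100 µg/kg in 7 hourly injections on each of 2 consecutive days. The 2 WT mice and the 3 i4F mice, which carry a doxycycline-inducible cassette of the Yamanaka factors and the rtTA transactivator, drank doxycycline at 1 mg/ml for 7 days. The labels give no doxycycline for the caerulein mice, so that in every comparison below caerulein and the absence of doxycycline cannot be told apart, and the i4F mice differ in genotype as well. All 3 i4F libraries and WT library 1 belong to the library series AL, and the caerulein libraries and WT library 2 to the series AM.

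Counts are unique molecular identifiers (UMIs), which stand for single captured RNA molecules, and levels are given as CPM, the UMIs of a gene scaled to the same total in all cells compared. The cluster held 2718979 UMIs in mouse 1 and 567530 in mouse 2, with medians of 2205.5 and 1181 UMIs per cell. The macrophage clusters of the same mice, 7619 and 2836 cells with medians of 2720 and 1719.5 UMIs, served as the reference. The doublet caller Scrublet, which marks barcodes that look like mixtures of cells, called 78 of the 994 cells of mouse 1 (7.85%) and 15 of the 398 of mouse 2 (3.77%). They were kept and are named below where they gather. The 2 caerulein libraries shared 25 cell barcodes, and none of these lay in the cluster in both libraries.

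Dendritic cells are the immune cells that take up antigen and present it to T cells. Presentation to CD4 T cells uses MHC class II molecules, heterodimers of an alpha and a beta chain such as H2-Aa with H2-Ab1, which the invariant chain Cd74 guides through the cell and which H2-DM loads with peptide under the transcriptional coactivator Ciita. The conventional dendritic cells fall into cDC1, which depend on Batf3 and Irf8 and specialise in cross-presentation, and cDC2, which carry lectins such as Cd209a and Clec10a. Plasmacytoid dendritic cells (pDC), marked by Siglech and Tcf4, are the main source of type I interferon. Mature dendritic cells of any subset take up Ccr7, the chemokine receptor that leads them to lymph nodes. B cells present antigen on MHC class II as well and are defined by their antigen receptor, whose signalling chains are Cd79a and Cd79b, whereas T cells are defined by the CD3 chains that signal for theirs.

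Summed over its cells, the cluster was high in genes of antigen presentation, and it held few B cells. H2-Ab1 was at 7072 CPM in mouse 1 (95% exact Poisson interval 6970 to 7170) and 7547 in mouse 2 (7320 to 7780), beside 52.68 and 52.86 in the macrophage clusters. Cd74 was at 25420 and 22320 CPM, beside 390.3 and 317.9. Flt3, the receptor of the growth factor that dendritic cells depend on, was at 34.94 (28.3 to 42.7) and 42.29 CPM (27.1 to 62.9), from 95 and 24 UMIs, and at 0.181 and 0.3872 CPM in the macrophage clusters. All 3 genes were higher in the cluster than in the macrophage clusters of both mice, without overlap. Cd79a was at 50.02 (42 to 59.2) and 58.15 CPM (40.0 to 81.7), from 136 and 33 UMIs, beside 0.7694 and 0 CPM. Cd3e was at 11.4 (7.75 to 16.2) and 3.524 CPM (0.427 to 12.7), from 31 and 2 UMIs, beside 0.181 and 0 CPM, and its 2 UMIs in mouse 2 lie under the limit of 3 counts that a count of 0 allows. The intervals here and below cover counting error alone. Most UMIs of Cd79a and Cd3e lay in the sub-clusters named for B and T or NK cells, described in turn. Since the authors clustered on all genes of these cells, the levels are given as a description with no test.

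The class II genes H2-Ab1 (chr17:34257689-34269419, plus strand), H2-Aa (chr17:34282744-34287823, minus strand) and H2-Eb1 (chr17:34305867-34316674, plus strand; GRCm38, GENCODE annotation) lie beside each other in the MHC locus. Class II promoters are known for a conserved module through which Ciita acts, and the Y box, an inverted CCAAT element, is part of it. The promoters of the 2 alpha and beta chain genes that led the cluster and had a RefSeq entry are shown, 250 bases before to 50 bases after the start site (GRCm38.p6, on the strand of the gene), because these genes separated the cluster from macrophages most. H2-Aa lies at chr17:34287774-34288073 and H2-Eb1 at chr17:34305617-34305916, and the capitals mark the letters CTGATTGG.
H2-Aa: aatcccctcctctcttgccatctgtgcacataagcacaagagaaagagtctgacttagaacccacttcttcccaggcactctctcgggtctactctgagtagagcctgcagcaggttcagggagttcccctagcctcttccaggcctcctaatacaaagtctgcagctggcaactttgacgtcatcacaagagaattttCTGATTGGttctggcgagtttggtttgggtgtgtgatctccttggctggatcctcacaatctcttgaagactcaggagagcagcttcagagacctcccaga
H2-Eb1: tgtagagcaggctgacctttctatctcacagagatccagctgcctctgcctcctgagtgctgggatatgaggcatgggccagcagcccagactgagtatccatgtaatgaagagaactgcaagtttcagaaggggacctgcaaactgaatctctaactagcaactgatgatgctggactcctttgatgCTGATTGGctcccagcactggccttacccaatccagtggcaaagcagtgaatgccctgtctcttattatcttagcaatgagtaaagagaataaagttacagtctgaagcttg
The motif starts 51 bases before the start site of H2-Aa and 62 bases before that of H2-Eb1. It was found on either strand in 3 of the 8 class II promoters looked up, the other being that of H2-Oa, 46 bases before its start, and in 1346 of all 32851 RefSeq promoters of this length (4.1%). A match of these letters is a description of the window and not of any binding.

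Against the macrophage clusters, all 10 measured genes of MHC class II presentation were over 2-fold higher in both mice on the log2(CPM + 20) scale, while 210 of the 28764 genes in the caerulein table met that criterion (0.73%). H2-Eb1 led, with 6961 and 6734 CPM beside 38.38 and 31.75, a log2 ratio of 6.90 and 7.03. It was followed by H2-Aa, with 7645 and 7147 CPM beside 51.14 and 45.31 and log2 ratios of 6.75 and 6.78. The peptide-loading chain H2-DMb1 was at 848.8 and 822.9 CPM beside 44.85 and 49.18, and its modulator H2-Oa at 107.8 and 142.7 beside 0.2715 and 0.3872. Ciita itself was at 38.25 and 70.48 CPM, beside 0.181 and 0.1936. Class II genes were thus high from the coactivator through the chains to the loading machinery. The class I list moved less, with 3 of 9 genes over 2-fold higher.

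The other genes furthest above the macrophage clusters are known from several cell types. Igkc, the kappa light chain of antibodies, was at 3101 CPM in mouse 1 and 149.8 in mouse 2, beside 100.8 and 0, so that its level differed more between the mice than that of any class II chain. Ly6d, a surface protein of early B cells and of plasmacytoid dendritic cells, was at 164.4 and 186.8 CPM beside 1.856 and 2.711. Klrd1, the CD94 chain of NK receptors, was at 142.7 and 174.4 beside 0.2263 and 0.7744. The matrix genes Sparc (1751 and 882.8 beside 107.3 and 68.34 CPM) and Col3a1 (749.2 and 470.5 beside 57.43 and 44.14) are best known from fibroblastic cells.

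Conversely, 11 of 12 macrophage markers were over 2-fold lower in the cluster, while 142 of the 28764 genes met that criterion in this direction (0.494%). The platelet factor Pf4 was at 850.7 and 308.4 CPM beside 7086 and 5110, log2 ratios of -3.03 and -3.97. The lipid carrier Apoe was at 2625 and 3180 CPM beside 18880 and 23470, log2 ratios of -2.84 and -2.88. The scavenger receptor Stab1 and the folate receptor Folr2, both genes of tissue-resident macrophages, were among the 10 furthest below, as were Cbr2, Ccl8, S100a9, Spp1, Chil3 and Saa3. The summed macrophage list still stood at 7864 and 7975 CPM, beside 35590 and 38810 in the macrophage clusters, so that macrophage transcripts were lower and not absent.

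**Figure D1:**
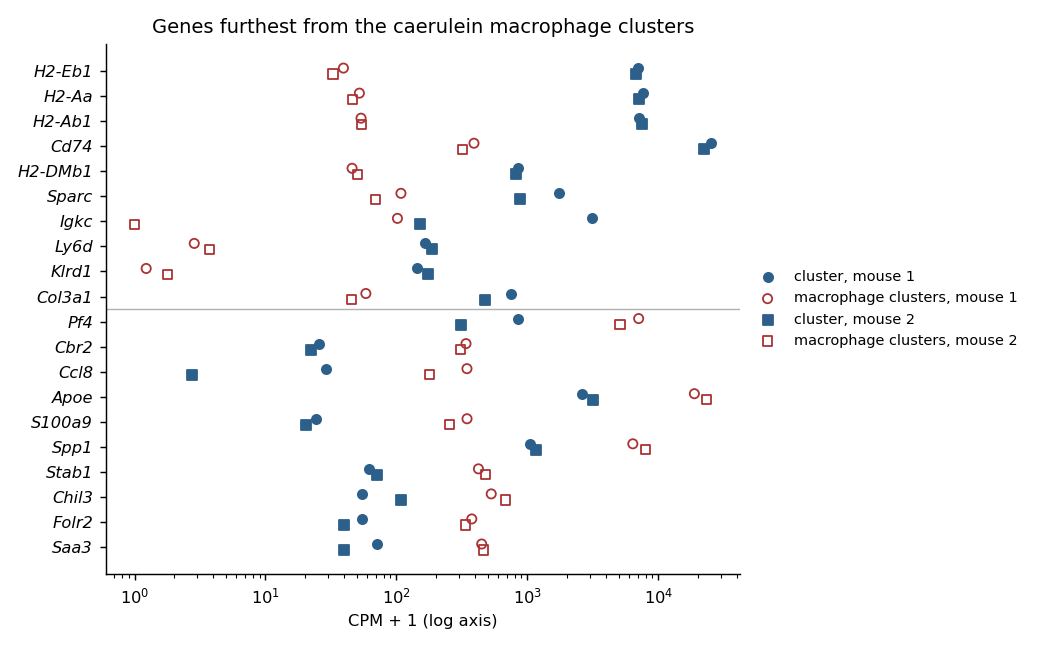
Level of the 10 genes furthest above and the 10 furthest below the caerulein macrophage clusters, as CPM + 1 on a log axis, with filled marks for the cluster and open marks for the macrophage clusters (circles, mouse 1; squares, mouse 2). H2-Eb1, H2-Aa and H2-Ab1 lay between 6734 and 7645 CPM in the cluster of both mice and between 31.75 and 52.86 in the macrophage clusters, while Igkc differed between the mice (3101 and 149.8 CPM).

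Clustering the 1392 cells again (resolution 0.5) gave 10 sub-clusters, each with cells of both mice. Each was named for the marker list whose genes exceeded the other cells by the highest mean fold, provided that at least 3 of them lay over 1.5-fold. Dendritic cell-like sub-clusters held 637 cells, 45.8% of the cluster, with 45.4% of the cells of mouse 1 (42.2 to 48.5) and 46.7% of those of mouse 2 (41.7 to 51.8). A macrophage-like sub-cluster held 362 cells (26%; 25.3% and 27.9% in the 2 mice), and a T or NK cell-like one 191 cells (13.7%; 14.6% and 11.6%). The only sub-cluster of the B lineage held 53 cells, 3.81% of the cluster, with 3.92% in mouse 1 (2.8 to 5.32) and 3.52% in mouse 2 (1.94 to 5.83). The other cells were ILC2-like (36 cells), stellate cell-like (50 cells) or unnamed (63 cells). The intervals of the mice overlapped in each of these 7 classes. B-lineage cells were hence the smaller part of a cluster that carried their name, in each mouse. How the cells were counted mattered for the dendritic class and for the smaller ones. By the gate described below the dendritic share was 11.0%, while 47.9% of the cells met no gate. Among cells with at least 500 genes the dendritic share was 52.0% and the B share 6.51%, and no T or NK cell-like sub-cluster was formed. Without mouse 1, no B-lineage sub-cluster was formed from the 398 cells of mouse 2, and the dendritic and T or NK shares were 49.5% and 22.9%.

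**Figure D2:**
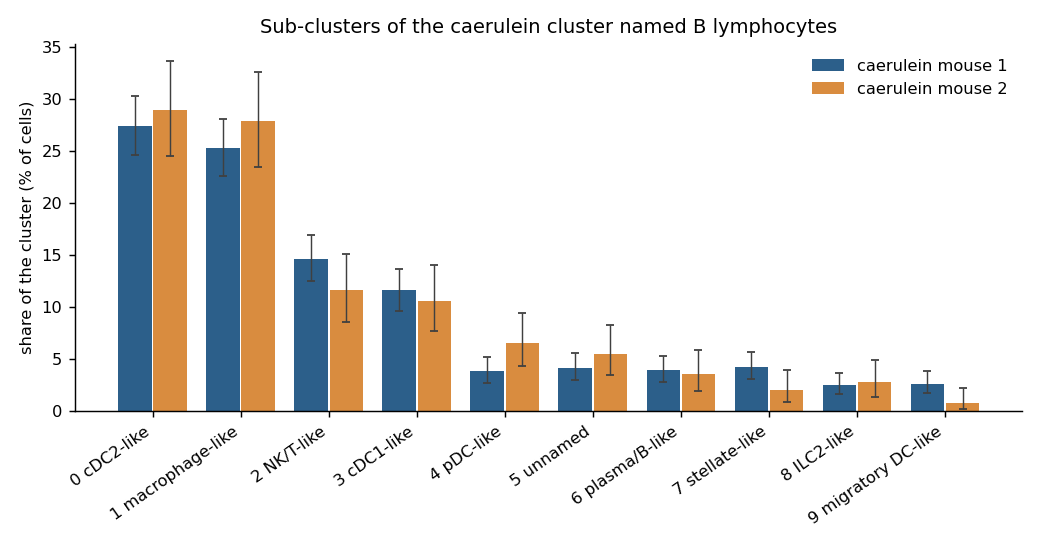
Share of the cluster in each of the 10 sub-clusters, in percent of the cells of each caerulein mouse, with 95% exact binomial intervals. The cDC2-like and macrophage-like sub-clusters were the largest in both mice, and the migratory DC-like sub-cluster held 26 cells of mouse 1 and 3 of mouse 2.

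The largest dendritic sub-cluster, cDC2-like, held 387 cells (272 and 115), none of them called a doublet. Cd209a, the mouse relative of DC-SIGN, led it with 505.8 CPM in mouse 1 and 195.8 in mouse 2. The lectin Clec10a, also among its leading genes, was at 381.1 and 195.8. Both lectins were higher in mouse 1. Il1r2, the decoy receptor for interleukin 1, was at 1199 and 730.3 CPM, and Napsa, an aspartic protease of the endosomal pathway, at 1658 and 1491. Cd7 (299.2 and 338.8) and Klrd1 (432.8 and 579.7), better known from lymphocytes, were among its 10 leading genes, while Cd3d and Cd3e had no UMI here. Of the Klrd1 UMIs of the whole cluster, 243 of 388 in mouse 1 and 77 of 99 in mouse 2 lay in the cDC2-like cells, and 16 and 3 in the T or NK cell-like ones. Its class II list summed to 90790 and 84180 CPM, the highest of all sub-clusters in both mice, and the class II modulator H2-Oa (270.7 and 384) and the peptide-loading chain H2-DMb2 (251.1 and 165.6) were also among its leading genes. Flt3 was at 51.65 and 82.82 CPM, and the integrin Itgax (CD11c) at 149.6 and 97.88. The name rested on 3 markers, and the summed macrophage list, at 1092 and 1062 CPM, was far below the macrophage clusters.

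The cDC1-like sub-cluster held 157 cells (115 and 42, of which 0.637% were called doublets), with 9 markers over the threshold. Its defining receptors Xcr1, for the chemokine Xcl1, and Clec9a, for the actin of dead cells, were at 100.6 and 134.9 CPM and at 143.2 and 254.8 CPM. The transcription factors of this lineage were high as well, Batf3 at 274.3 and 434.7, Irf8 at 771.1 and 1754, and Id2 at 566.9 and 839.4. Wdfy4, which cDC1 need for cross-presentation, was at 338.3 and 374.7. All of these were higher in mouse 2 than in mouse 1. The protease inhibitor Cst3 reached 28490 and 24810 CPM, and the acid amidase Naaa 749.8 and 1154. Flt3 was at 137.2 and 119.9 CPM here, and the class II list at 80250 and 77360. Of the remaining cDC1 markers, the adhesion molecule Cadm1 was at 9.144 and 59.96 and the RNA sensor Tlr3 at 51.81 and 14.99, where single UMIs weigh heavily.

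A small migratory dendritic cell-like sub-cluster held 29 cells, 26 of mouse 1 and 3 of mouse 2, again with no called doublet. Ccr7 was at 5179 CPM in mouse 1 and 6885 in mouse 2, and the actin-bundling protein Fscn1 at 1102 and 810. Il4i1, a secreted amino acid oxidase, was at 923 and 1620, and the channel subunit Cacnb3 at 435.9 and 2025. The 3 cells of mouse 2 held few molecules, so that the second value of each pair is imprecise. The chemokine Ccl22 and the interleukin 12 subunit Il12b were at 384.6 CPM each in mouse 1 and at 0 in mouse 2. The checkpoint ligand Cd274 (PD-L1) was at 333.3 and 405. Flt3 had no UMI in these cells in either mouse, while their class II list stood at 83400 and 20250 CPM.

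The pDC-like sub-cluster held 64 cells (38 and 26, no called doublet), and all 7 of its listed markers passed. Siglech was at 1244 and 1707 CPM, the homing receptor Ccr9 at 1484 and 1219, the muscle-type cytochrome oxidase subunit Cox6a2 at 2051 and 1463, and the transcription factor Tcf4 at 981.7 and 1097. Ly6d, at 6610 and 4999, and Cd8b1, at 850.8 and 1707, were high as well. The B list stood at 1047 and 1341 CPM in these cells, nearly all of it Ighm (959.9 and 1219), while Cd79a and Ms4a1 had no UMI. Likewise the T list, at 1571 and 2073, was mostly Cd8b1 and Cd8a (545.4 and 304.8), with no UMI of Cd3e or Cd3d. Their interferon response list summed to 6109 and 6035 CPM, beside 962.5 and 974.4 in the whole cluster, with the tetherin gene Bst2 alone at 5760 and 5426. The class II list, at 20380 and 17920 CPM, was lower than in the other dendritic sub-clusters of both mice, and H2-Ab1 was at 1833 and 2134 beside 13160 and 13960 in the cDC1-like cells. The nucleic acid sensor Tlr9 had no UMI in either mouse.

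**Figure D3:**
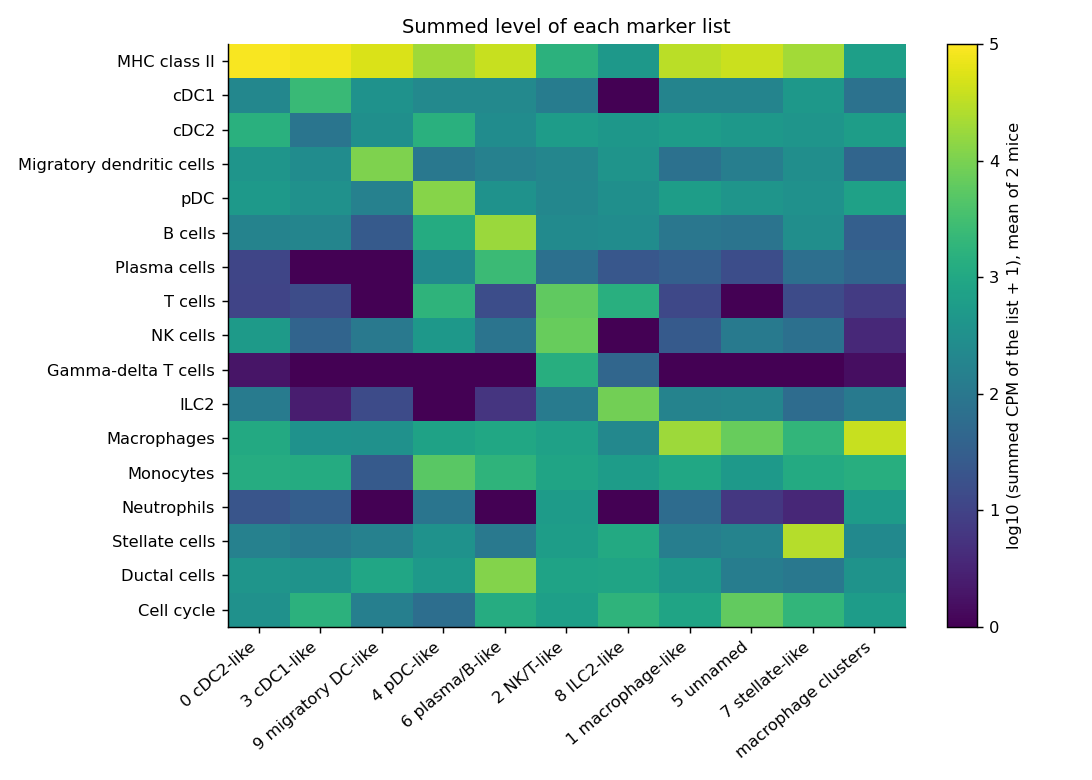
Summed level of each marker list (rows) in the 10 sub-clusters and in the caerulein macrophage clusters (columns), as log10 of summed CPM + 1, mean of the 2 mice. MHC class II was high in every sub-cluster except the NK/T-like and ILC2-like ones, and the lists of B, T, NK and ILC2 genes each peaked in a single sub-cluster.

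The B-lineage sub-cluster of 53 cells (39 and 14) held 115 of the 136 Cd79a UMIs of mouse 1 and all 33 of mouse 2. It carried Cd79a at 1110 CPM in mouse 1 and 2821 in mouse 2, Cd79b at 443.9 and 854.8, and the surface protein Ms4a1 (CD20) at 241.3 and 598.4. All 3 genes were higher in mouse 2. Antibody genes went the other way: Igkc was at 80800 and 6411 CPM, with 8373 of the 8432 UMIs of mouse 1, the heavy chain Ighm at 25250 and 2394, and the joining chain Jchain at 1515 and 0. The chaperone Mzb1, needed to assemble antibody, was at 2866 and 512.9. The plasma cell gene Sdc1 was at 28.95 and 0, and the IgA heavy chain Igha had no UMI. By the naming rule the plasma cell markers scored highest, on 3 markers, but the leading genes also included B cell genes, and it is called B-lineage here. Of these cells 17.0% were called doublets, and Clu (14220 and 4274 CPM) and Krt18 (1699 and 1368) were high in them. Both genes are on the ductal list and also among the 20 genes that stood out most in the acinar clusters, where Clu came first. These 20 genes took 4.38% and 2.75% of their UMIs, beside 0.301% and 0.25% in the whole cluster and 16.9% and 16.7% in the acinar clusters. The part of these transcripts in the values of the sub-cluster was not tested. By a gate on B genes set for all mice (below), 37 of the 53 cells were B-gated.

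The T or NK cell-like sub-cluster held 191 cells (145 and 46) of low depth, with medians of 590 and 363 UMIs. The CD3 chains Cd3d (1036 and 1082 CPM) and Cd3g (1076 and 836.4) and the T cell receptor constant genes Trbc2 (1106 and 1132) and Trac (288.9 and 295.2) were high in both mice. Cd3e was at 308.8 and 98.41 CPM, and all 31 and 2 of its UMIs in the cluster lay here. Cytotoxic genes stood beside them and were higher in mouse 2: the granzyme Gzma at 1285 and 4625, Gzmb at 338.7 and 984.1, perforin (Prf1) at 199.2 and 639.6, and Nkg7 at 1255 and 2067. Ncr1, the receptor NKp46 that defines NK cells, was at 69.74 and 492. The γδ T cell genes were higher in mouse 1, with the delta chain Trdc at 1285 and 393.6 CPM, the gamma chain Tcrg-C1 at 139.5 and 49.2 and the cytokine Il17a at 438.3 and 98.41. Cd4 was at 29.89 and 0 and Cd8a at 99.62 and 147.6. The naming rule placed these cells with NK cells, on 4 markers. Their leading genes were T cell, γδ T cell and NK cell genes together, and at this depth and number of cells the 3 kinds were not separated. The class II list was at 697.4 and 2559 CPM, beside 48860 and 45670 in the whole cluster.

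A separate group of 36 cells (25 and 11) was ILC2-like, with no called doublet. Group 2 innate lymphoid cells lack the T cell receptor and make type 2 cytokines, and here Il5 was at 2216 and 158.7 CPM and Il13 at 975.2 and 476. The interleukin 33 receptor Il1rl1 was at 531.9 and 952.1, the transcription factor Gata3 at 709.3 and 158.7, the neuropeptide Calca at 1817 and 1428, and the growth factor Areg at 4034 and 3808. Cd3e and Cd3d had no UMI in these cells in either mouse. Other T cell transcripts were present at few UMIs, with Trbc2 at 266 and 476 CPM (6 and 3 UMIs), Trbc1 at 177.3 and 793.4 (4 and 5 UMIs) and Cd3g at 88.66 and 476 (2 and 3 UMIs). Medians of 805 and 418 UMIs limit the precision of each value.

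The macrophage-like sub-cluster of 362 cells (251 and 111) had lower levels of several macrophage genes than the macrophage clusters of the same mice, and higher H2-Ab1 and Cd74. The complement gene C1qa was at 3473 and 2193 CPM beside 4717 and 3920, and the receptor Adgre1 (F4/80) at 148.7 and 167.6 beside 265 and 317.3. Apoe was at 7089 and 7870 beside 18880 and 23470. The whole macrophage list summed to 19700 and 18160 CPM beside 35590 and 38810. H2-Ab1, by contrast, was at 4691 and 4175 CPM beside 52.68 and 52.86, and Cd74 at 18480 and 13390 beside 390.3 and 317.9. Doublet calls covered 10.2% of these cells, and the medians were 3458 and 1646 UMIs. Across the whole cluster, 20 cells had at least 2 genes of both the dendritic and the macrophage gate, with a median of 5811 UMIs, and 11 of them were called doublets.

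The unnamed sub-cluster of 63 cells (41 and 22) was led by genes of dividing cells, with the topoisomerase Top2a at 510.4 and 462.5 CPM, the survivin gene Birc5 at 678.7 and 787.9 and the histone Hist1h2ae at 1059 and 394. Its class II list was at 42560 and 38350 CPM and its macrophage list at 6456 and 7194. None of these cells was called a doublet. The stellate cell-like sub-cluster of 50 cells (42 and 8) expressed Sparc at 11930 and 10730, Col1a1 at 3685 and 3928, Col1a2 at 3628 and 3629 and Dcn at 1918 and 2044, together with Cd74 at 10860 and 10680 and H2-Ab1 at 2874 and 2825. Genes of both lineages thus stood in the same barcodes. Scrublet called 44 of the 50 (88.0%), and the medians of 8357.5 and 5181.5 UMIs were the highest of all sub-clusters in both mice. Of the Sparc UMIs of the whole cluster, 4602 of 4762 in mouse 1 and 467 of 501 in mouse 2 lay in these 50 cells.

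To set the cluster beside the clusters of the same name in the other groups, each cell of an immune cluster was gated by 10 genes for each of 5 types and took the type with the most genes detected, if at least 2 were and none tied. In the WT mice 157 of the 158 cells of the cluster named B lymphocytes were B-gated (99.4%), and in the i4F mice 1824 of 2086 (87.4%). In the caerulein mice 39 of 1392 were (2.8%), while 381 were macrophage-gated, 153 dendritic-gated and 146 T/NK-gated, and 667 (47.9%) met no gate. The share of B-gated cells was 2.72% in mouse 1 (1.8 to 3.93) and 3.02% in mouse 2 (1.57 to 5.21). Within the immune clusters of its mice, the caerulein cluster nevertheless held nearly all cells gated as 3 of the types, 153 of 154 dendritic-gated, 39 of 40 B-gated and 146 of 146 T/NK-gated immune cells, and 381 of 9666 macrophage-gated ones. The same gate was also met by caerulein cells outside the immune clusters, 305 and 45 of them dendritic-gated in the 2 mice, 12 and 5 B-gated and 16 and 1 T/NK-gated, and these were not counted. The dendritic-gated cells of the WT mice all lay in the cluster named Macrophages_2, and 122 of the 137 of the i4F mice in Macrophages_3. The name thus stood mostly for B-gated cells in the WT and i4F mice, and for other cells in the caerulein mice. The gate was strict, since it took 130 of the 637 cells of the dendritic sub-clusters. The dendritic genes of the gate were Flt3, Zbtb46, Xcr1, Clec9a, Batf3, Cd209a, Ccl22, Fscn1, Cacnb3 and Siglech, and it took 31 of the 387 cDC2-like cells, 69 of the 157 cDC1-like and 15 of the 29 migratory-like ones.

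**Figure D4:**
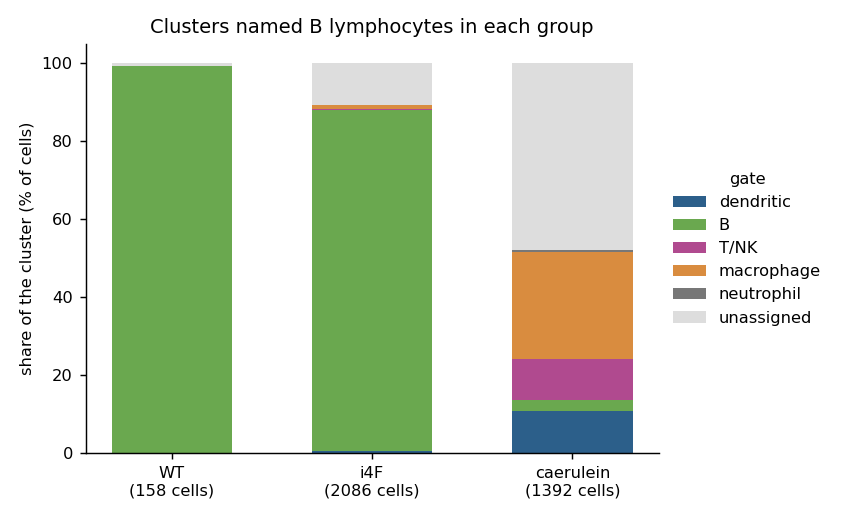
Share of cells in each gate, in percent of all cells in the cluster named B lymphocytes of the WT, i4F and caerulein mice (158, 2086 and 1392 cells). B-gated cells fill 99.4% of the WT bar, 87.4% of the i4F bar and 2.8% of the caerulein bar.

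Dendritic cells could be compared over mice by this gate. Dendritic-gated cells of the immune clusters made up 0.813% and 0.44% of all cells after caerulein. The WT values were 0.74% and 0.759%, and those of i4F mice 0.285%, 0.268% and 1.14%. The caerulein values lay on both sides of the WT values, and the i4F values spanned both. The mean share was 0.626% ± 0.263 (SD, n = 2) after caerulein and 0.749% ± 0.0136 (n = 2) in WT, a log2 ratio of -0.26, with an adjusted p of 1.0 by the exact two-sided permutation test, whose smallest possible p is 1 in 3. Against i4F, at 0.565% ± 0.5 (n = 3), the log2 ratio was 0.15, with an adjusted p of 1.0 by the same exact permutation test and a smallest possible p of 0.2. No difference was detectable with these numbers of mice, and the sign of both ratios changed with the settings. As a share of immune cells, gated cells made up 1.43% and 0.959% after caerulein and 14.3% and 6.43% in WT, a log2 ratio of -3.12 that the exact permutation test cannot call with 2 mice against 2. The 2 WT mice had 49 and 81 cells outside the immune clusters that met the gate, and the 3 i4F mice had 443, 286 and 25. Counting these cells too, which was decided after the data were seen, gave log2 ratios of -0.0015 against WT and -0.77 against i4F. What these cells were was not tested. Gated cells of the WT mice were deeper, with medians of 7925.5 and 5596 UMIs, than those of the caerulein mice, with 2581 and 1390, and the i4F mice, with 2087, 2100 and 3537. With each cell thinned to 1000 UMIs, the log2 ratios were 0.24 against WT and -0.45 against i4F. The make-up of the gated cells also differed, and at least 2 cDC1 genes were found in 65 of 123 (52.8%) and 18 of 31 (58.1%) in the caerulein mice, in 26 of 32 (81.2%) and 30 of 48 (62.5%) in the WT mice, and in 4 of 28, 1 of 22 and 30 of 87 in the i4F mice (14.3%, 4.55% and 34.5%). The part of depth in these shares was not tested.

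The genes of the dendritic-gated cells were compared on UMIs summed per mouse, with the 50 gate genes left out. Of 4142 genes tested with edgeR's quasi-likelihood test at a Benjamini-Hochberg adjusted p of 0.05, 157 (3.79%) differed between caerulein and WT mice, 104 higher after caerulein (2.51%) and 53 lower (1.28%), a split that was 126 and 32 without TMM scaling. Against i4F mice 278 differed (6.71%), 131 higher (3.16%) and 147 lower (3.55%), which was 155 and 124 without TMM scaling. Both comparisons share the caerulein mice. Of 7 tested stellate markers, 4 were called higher against WT and 5 against i4F. Sparc was at 4203 and 3572 CPM (scaled by TMM, as for all gene values from here on) after caerulein. WT mice had 438.1 and 177.1, and i4F mice had 150.1, 47.46 and 257.9. The stellate list as a whole, in CPM without TMM scaling, summed to 9391 and 9799 in the gated caerulein cells. It summed to 3244 and 778 in WT and to 300.2, 332.6 and 705.5 in i4F. Of the 153 gated caerulein cells, 18 lay in the stellate cell-like sub-cluster with its many called doublets. Without that sub-cluster the caerulein sums of the list were 186.4 and 153.3 CPM. Only caerulein cells were taken out, and the WT and i4F sums stayed as above. The UMIs of the gated caerulein cells fell from 428175 to 268195 in mouse 1 and from 56434 to 39128 in mouse 2. Without those cells the calls fell to 3 of 4007 genes against WT, 2 of them among the 157. With all gated cells 596 genes had an unadjusted p under 0.05 against WT, and without those cells 324 did. Against i4F the calls fell to 39, 5 higher and 34 lower, of which 34 were among the 278. The part of the lower UMI sums in these counts was not tested. The 3 genes, named after their values were seen, were Gm2663, which is among the 20 acinar genes, Dcn and Trf.

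The calls against i4F that remained without these cells included genes of dendritic cell maturation. All 6 tested genes of the migratory list were lower after caerulein than in i4F mice (median log2 fold change -3.46, beside 0.058 over all genes tested, of which 3.55% were called lower). Ccl22, Fscn1 and Cacnb3, 3 more genes of this list, are gate genes and were not tested, so the cells were picked in part on migratory genes in every group. Ccr7 was at 313.6 and 237 CPM in the caerulein mice, at 4819, 3702 and 2430 in the i4F mice and at 542.2 and 1542 in the WT mice. The caerulein mice lay below every mouse of both other groups. Since the gate takes the dendritic subsets together, a lower level per cell and fewer cells of the migratory kind cannot be told apart in these sums. Against i4F its log2 fold change was -3.68 ± 0.48 (SE; adjusted p = 0.000588, edgeR's quasi-likelihood test with Benjamini-Hochberg adjustment) and -2.998 without the stellate cell-like sub-cluster, where it was still called. It was called in 18 of the 20 alternatives run, the exceptions being a gate of 3 genes, which left 1 caerulein and 1 i4F mouse in the fit, and the cDC1-gated cells of mice with at least 15 cells, which left 1 i4F mouse. The 18 also included fits with few mice. The cDC1-gated cells without that minimum left 1 caerulein and 1 i4F mouse, and leaving out either caerulein mouse left 1. Il4i1 was at 46.92 and 84.65 CPM beside 633.6, 664.5 and 443.1 in i4F mice, a log2 fold change of -3.31 ± 0.52 (edgeR, adjusted p = 0.0015), and it was also called without that sub-cluster, at -2.68. Cd200, an inhibitory ligand, was called in both settings too, at -4.05 and -3.39. Neither Il4i1 nor Cd200 was called without caerulein mouse 1, which gave 122 of the 153 gated cells. Relb, Socs2 and Il12b were called with all gated cells and not without the sub-cluster, at -2.48, -3.59 and -3.01. Of the costimulatory list, 4 of 8 tested genes were lower against i4F (Cd40, Cd86, Cd274 and Tnfrsf4), beside 3.55% of all genes, of which Cd40, the receptor for T cell help, was at 27.16 and 0 CPM beside 216.8, 189.8 and 211.6, and Cd40 and Tnfrsf4 were also called without the sub-cluster, but not without caerulein mouse 1. With the library series as a term, Cd86 and Cd274 were not called. Only the WT group has libraries of both series, 1 of each, so that this term rests on 1 library against 1.

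**Figure D5:**
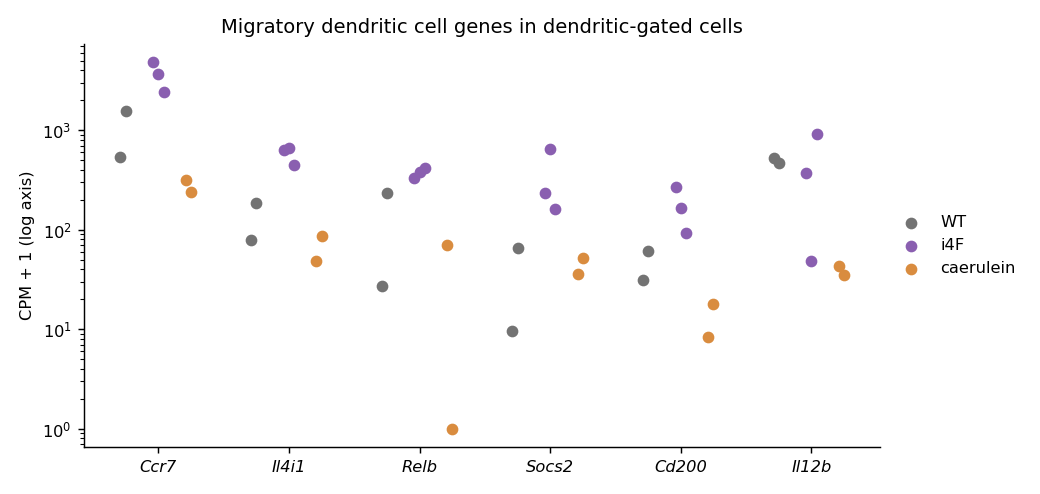
Level of the 6 tested genes of the migratory dendritic cell list in the dendritic-gated cells of each mouse, as TMM-scaled CPM + 1 on a log axis. Ccr7 lay at 313.6 and 237 CPM in the caerulein mice and between 2430 and 4819 in the i4F mice, with the WT mice between them at 542.2 and 1542.

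Of 8 tested class I genes, 3 were called lower against i4F, beside 3.55% of all genes. The light chain B2m was at 805 and 897.3 CPM beside 2451, 2729 and 2741 (log2 fold change -1.64, edgeR adjusted p = 0.00351), and the heavy chain H2-K1 at 1077 and 1016 beside 3468, 3631 and 3607 (-1.77, edgeR adjusted p = 0.00175). The WT mice lay between both groups, at 1453 and 1226 for B2m and at 1987 and 1796 for H2-K1. Without the stellate cell-like sub-cluster H2-K1 was still called, at -1.31, though not without either caerulein mouse, and B2m, at -1.24, and H2-D1, at -0.67, were not. With the library series as a term in the fit none of the 3 genes was called. All i4F libraries are of the AL series and the caerulein libraries of the AM series, so that the term rests on the WT libraries alone, 1 of each series. None of the 10 class II genes was called against i4F, with a median log2 fold change of 0.09. Ccr2, the chemokine receptor of monocytes and their progeny, was higher against i4F, at 177.8 and 169.3 CPM beside 0, 23.73 and 39.68, a log2 fold change of 2.54 ± 0.57 (edgeR adjusted p = 0.0147), and 3.07 without that sub-cluster, where it was also called, while it was not without either caerulein mouse. In the WT mice it was at 264.6 and 151.1 CPM, which overlap the caerulein values. For the class I genes and Ccr2 too, another level per cell and another mix of dendritic subsets cannot be told apart. Cells with at least 2 cDC1 genes made up 52.8% and 58.1% of the gated caerulein cells, and 14.3%, 4.55% and 34.5% in i4F mice.

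Against WT, where 1.28% of all genes were called lower, 2 of 10 class II genes (H2-Aa and H2-Eb1), 2 of 7 cDC2 genes (Mgl2 and Clec10a), 2 of 6 migratory genes (Ccr7 and Il12b) and 3 of 8 costimulatory genes (Cd40, Cd274 and the maturation gene Cd83) were, and these calls were lost without the stellate cell-like sub-cluster. That setting also held fewer caerulein UMIs, and the part of this in the lost calls was not tested. With the library series as a term, H2-Aa, H2-Eb1, Clec10a, Cd40 and Cd274 were not called, while Mgl2, Ccr7, Il12b and Cd83 were. H2-Aa was at 9739 and 7856 CPM beside 21930 and 19710 in the WT mice, a log2 fold change of -1.24 ± 0.32 (edgeR adjusted p = 0.0404), and -0.77 without that sub-cluster. H2-Eb1 was at 8495 and 7450 beside 18560 and 17880 (-1.19, edgeR adjusted p = 0.0466), and -0.72 without it. The class II list's median was -1.07, beside -0.02 over all genes tested. Cd83 was at 859.4 and 711.1 CPM beside 3418 and 2418 (-1.88, edgeR adjusted p = 0.00506), and -1.39 without the sub-cluster. The cDC2 lectins Mgl2 (56.8 and 0 beside 416.4 and 837.8 CPM) and Clec10a (71.61 and 33.86 beside 360 and 259.1) had log2 fold changes of -3.82 and -2.31, and of -3.71 and -1.85 without the sub-cluster. The gate took only 31 of the 387 cDC2-like cells of the caerulein mice. For all genes of this comparison, a lower level per cell and another mix of dendritic subsets cannot be told apart in these sums. Cd207, the lectin langerin, had no UMI in the gated caerulein cells and was at 134.5 and 51.82 CPM in the WT mice, at least 14.4-fold lower against the limit of 3 UMIs over the group (edgeR adjusted p = 0.00635). Without the sub-cluster it still had no UMI in the caerulein cells, fewer in number, and was not called (edgeR adjusted p = 0.0744). Plac8 (847 and 914.3 beside 212.5 and 108 CPM, log2 fold change 2.45, edgeR adjusted p = 0.0142) was higher after caerulein and had a log2 fold change of 2.65 without the sub-cluster, where it was not called. Leaving out caerulein mouse 1 left 18 calls against each group.

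By the rule for the largest changes, the genes furthest above WT were Ly6d, with no UMI in the gated WT cells and at 125.9 and 237 CPM after caerulein (at least 28-fold), the mesenchymal transcription factor Prrx1 (at least 20.6-fold), the collagen crosslinking enzyme Lox (at least 17.2-fold) and the matrix protein Postn (at least 16-fold), with Fkbp10, Cxcl5, Srpx2, 1810009J06Rik, Serpina3n and Gm2663. Besides Ly6d, each of these was at 16.53 CPM or less in every WT and i4F mouse. They passed the filter on low counts only because of the caerulein mice. As they were then picked for the largest change, their folds and calls are a description. Without the stellate cell-like sub-cluster, Prrx1, Lox, Postn, Fkbp10, Cxcl5, Srpx2 and Serpina3n were no longer among the genes tested. Of the others, Gm2663 was still called, and Ly6d and 1810009J06Rik were not. Those furthest below WT besides Cd207 were Xlr, the digestive enzyme genes Amy2a5, Ctrc and Pla2g1b, the chaperone Pdia2, the chemokine Ccl17 and Ear2, Mefv and Mir155hg. None of them was called without that sub-cluster. Ccl17, which attracts T cells bearing Ccr4, was at 12.35 and 0 CPM after caerulein, at 95.42 and 1036 in the WT mice and at 233.4, 332.2 and 1547 in the i4F mice. Its log2 fold change was -5.68 against WT and -6.12 against i4F (edgeR adjusted p = 0.0187 and 0.00746), and without the stellate cell-like sub-cluster it was -5.03 and -5.46, with neither called. The genes furthest above i4F were the collagen chains Col6a2 and Col15a1, with P4ha2, an enzyme that hydroxylates collagen, Fkbp10, Srpx2, Mxra8, Gm2663, Maged2, Gpx8 and Cxcl5. None of them had a UMI in the gated i4F cells, and they too were picked for the largest change. Without that sub-cluster only Gm2663 among these was still tested, and it was called. Furthest below i4F, besides Ccl17, Ctrc and Tnfrsf4, were Synpo2, the secreted lectin Reg3a, 2200002D01Rik, Lad1, Nudt17, the interleukin 7 receptor Il7r and Ankrd33b. Without the sub-cluster Reg3a, Nudt17, Il7r, Ankrd33b and Tnfrsf4 were still called, and Ctrc, Synpo2, 2200002D01Rik and Lad1 were not. Acinar transcripts differed among the gated cells of the mice. In CPM without TMM scaling, the 20 acinar genes took 1172 and 6113 in the caerulein mice and 1425 and 1176 in WT. They took 2607, 6866 and 12320 in i4F. The part of these transcripts in the digestive enzyme genes was not tested.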

How the data were processed

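Whole pancreata of 2 WT, 3 i4F and 2 caerulein mice were profiled by droplet-based single-cell RNA sequencing. The deposited tables hold whole-number UMI counts per gene and cell, made by the authors with Cell Ranger on the mouse genome mm10 (the tool and build are also in the submitters' processing notes) and merged per condition with Seurat, after removal of cells with fewer than 150 genes or over 5% mitochondrial reads. The authors name SoupX for ambient RNA, and whether the deposited counts are corrected is not given in the sources used here. The deposited percent of mitochondrial reads and the cluster names were used as given. Genes that a table does not list were left out of tests, and the acinar marker list had no listed gene.

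For sub-clusters, the counts of the cluster's cells were normalized by SCTransform, and Seurat 5.3.0 grouped the cells on 20 principal components of 3000 variable genes at a resolution of 0.5. Doublets were called per library with Scrublet in scanpy 1.11.5 (0.8% per 1000 cells) and kept, with removal as an alternative. The caller marked 2 cells in WT library 1 and 0 in i4F library 3 and did not work there. UMIs of dendritic-gated cells were summed per mouse and tested in 1 fit of all 3 groups with edgeR 4.0.16 (TMM, filterByExpr, quasi-likelihood test, two-sided, adjusted p of 0.05) in R 4.3.3, and shares with scipy 1.17.1. On simulated data for caerulein against WT with 4142 genes, 50% of genes changed by 2 on the log2 scale and 73.7% of those changed by 3 were recovered, with 12 false calls beside 127 true ones. The simulated counts held no doublets and no mix of dendritic subsets, so that these rates need not hold for the real cells. Alternatives covered DESeq2 1.42.0, scaling, filters, gates, depth, doublets, pairing, library series and left-out mice. The members, marker lists and tests were chosen with earlier results of these data known. Genes named are list members, the 10 leading genes of a sub-cluster or of the cluster against macrophages in each direction, and up to 10 called genes per direction with the largest change, at least 1 log2 CPM on average and no overlap between the groups. The mice are separate samples per the labels.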

Additional observations from a re-analysis of the deposited data

How the results depend on the processing

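The dendritic share of the cluster (45.8%) was 46.2% at resolution 0.2 and 45.5% at resolution 1.0, and it was 40.9% with log-normalization, 52.0% among cells with at least 500 genes, 49.5% with called doublets removed, 11.0% by the gate and 43.7% to 49.5% with a mouse left out. The B share (3.81%) was 3.02%, 2.87%, 6.51%, 3.16% and 2.8% at resolution 0.2, with log-normalization, at 500 genes, without doublets and by the gate, and 0.0% to 3.32% with a mouse left out. The T and NK share (13.7%) was 16.3% at resolution 0.2, 0.0% at 500 genes, 10.5% by the gate and 17.1% to 22.9% with a mouse left out. Genes over 2-fold against macrophages were 280 to 327 higher and 191 to 219 lower in single mice, where a gene has to pass once instead of in both mice.

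The log2 ratio of dendritic-gated shares against WT changed sign with a gate of 1 gene (0.549), after thinning (0.2371) and without caerulein replicate 2 (range with a mouse left out -0.7664 to 0.1171). It was -1.7648 with a gate of 3 genes and -3.1224 as a share of immune cells. Against i4F it changed sign with a gate of 3 genes (-1.3345), after thinning (-0.4488), at 500 genes (-0.3282), as a share of immune cells (-0.2646), without the stellate cell-like sub-cluster (-0.0216), with gated cells of all clusters (-0.7737) and with a mouse left out (-0.36 to 1.1797). No i4F library belongs to the AM series, so that no value within the series was possible.

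Against WT, the 157 calls were 68 with DESeq2, 43 with a gate of 3 genes, 82 with cDC1-gated cells of mice with at least 15 cells, 1 with doublets removed (Timp1, named after its value was seen, with 347 genes at an unadjusted p under 0.05), 3 without the stellate cell-like sub-cluster and 18 to 236 with a mouse left out, lowest without caerulein replicate 1 and highest without WT replicate 2. The 278 against i4F were 163 with DESeq2, 163 with 2 groups in the fit (of 1088 genes tested, with 138 of the 145 calls that could still be tested), 114 with the library series as a term, 60 with cDC1-gated cells, 45 with doublets removed, 39 without that sub-cluster and 18 to 441, lowest without caerulein replicate 1 and highest without WT replicate 1. Against i4F edgeR called 0 genes with a gate of 3 genes (350 at an unadjusted p under 0.05) and 0 with cDC1-gated cells of mice with at least 15 cells (299), while DESeq2 was not run on these. The gate of 3 genes and the cDC1-gated cells left 1 caerulein and 1 i4F mouse in the fit, and the 15-cell minimum 1 i4F mouse, assumed to vary like the others, so that these counts say little of the gate itself. The cause of these changes was not tested. An alternative that takes out cells, mice or genes also changes the UMIs or the mice left in the fit. Without the stellate cell-like sub-cluster, which was set apart after seeing the data as were the 15-cell minimum and the crossed pairing, the log2 fold changes against WT turned to -1.38 for Col1a1, -1.32 for Col1a2, -1.48 for Col3a1 and -2.60 for Sparc, and against i4F to -0.83 for Col1a2, -0.98 for Col3a1, -3.69 for Dcn and -1.84 for Sparc. In that setting only caerulein cells were taken out, and the gated WT and i4F cells stayed the same. The signs thus compare caerulein cells after a removal with WT and i4F cells before any. Removing called doublets took gated cells mostly from the caerulein mice as well (122 to 109 and 31 to 27). Without TMM the median of all genes moved by 0.23 against WT and 0.13 against i4F.

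The deviations of same-numbered samples from their group means correlated at -0.1638 between WT and caerulein, 0.053 and 0.008 between i4F and caerulein and 0.0325 and 0.0081 between WT and i4F. In a group of 2 mice the deviations mirror each other, so that these values cannot decide whether the replicate numbers pair the mice. With the replicate block 79 genes were called against WT and 125 against i4F. With the numbers crossed in the block 220 were called against WT.

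The 2 caerulein mice, and 31 gated cells in mouse 2, limit every comparison. Sub-clusters of the cluster hold down to 3 cells of a mouse, and genes at few UMIs carry wide counting intervals.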
